A study of Mus musculus with 6 samples.

Results

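Messenger RNA of 8 chemokine receptor genes was followed in T cells from mouse brain tumors: Ccr7, Cxcr3, Cxcr6, Ccr2, Cxcr4, Ccr9, Ccr4 and Cxcr5, 8 of the 32285 genes in the count matrices. They were chosen by name, with earlier results of these data known. The cells were droplets with an assembled T cell receptor (TCR) contig, at least 5000 gene UMIs (unique molecular identifiers, each marking 1 captured molecule), at most 10% mitochondrial UMIs and at most 3 summed UMIs of the macrophage genes C1qa, Lyz2 and Csf1r. That left 3775 of 8359 contig barcodes at day 13 and 2159 of 4295 at day 19. All mice were wild-type C57BL/6J of 6 to 8 weeks with intracranial tumors of CT2A, a mouse glioma line. The day-13 group held 16 mice pooled by 4 for each replicate, and the day-19 group 4 mice. Cells carrying CD3 with CD4 or CD8 were sorted and captured with 10x 5' chemistry, in 1 gene expression library per day.

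Chemokine receptors are G protein-coupled receptors that steer migrating leukocytes toward cells secreting their ligands, and a T cell changes its set of receptors as it is activated. Naive and central memory T cells use Ccr7 to enter lymph nodes, whereas effector cells lose it and display receptors such as Cxcr3 and Cxcr6 for chemokines made in inflamed tissue. In tumors, Cxcr3 and its interferon-induced ligands are known for T cell entry, and Cxcr6 for placing cytotoxic cells near myeloid cells that make Cxcl16.

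Of the 8 genes, 5 lie on chromosome 9 of the mouse genome (RefSeq annotation of GRCm38.p6, mm10 being the build in the submitters' processing notes). Ccr9 (ENSMUSG00000029530, chr9:123767211-123783457), Cxcr6 (ENSMUSG00000048521, chr9:123806477-123811754) and Ccr2 (ENSMUSG00000049103, chr9:124101918-124109140) fell within 342 kb, and Cxcr6 began 23 kb beyond the end of Ccr9. Ccr4 (ENSMUSG00000047898, chr9:114490316-114505476) and Cxcr5 (ENSMUSG00000047880, chr9:44511787-44526444) lie elsewhere on that chromosome. Ccr7 (ENSMUSG00000037944) is at chr11:99144199-99155077, Cxcr4 (ENSMUSG00000045382) at chr1:128588199-128592299 and Cxcr3 (ENSMUSG00000050232) at chrX:101731535-101734147. Cxcr6 and Ccr2, near each other, differed in opposite directions between CD4 and CD8 cells and between Foxp3+ and Foxp3- cells, as given below.

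Promoters of 3 members are shown for 2 patterns described below: Cxcr6 and Cxcr4 differed in opposite directions with clone size and between terminal-like and progenitor-like CD8 cells, and Cxcr3 differed between the days. Each runs from 250 bases before to 50 bases after the RefSeq start, 5′ to 3′ on the gene's strand. Capitals mark a match, on either strand, to the cores CTTTGA (TCF/LEF factors), AGGTGT (T-box), TGTGGT (Runx) or CCACCC (KLF).
Cxcr6, chr9:123806227-123806526, plus strand: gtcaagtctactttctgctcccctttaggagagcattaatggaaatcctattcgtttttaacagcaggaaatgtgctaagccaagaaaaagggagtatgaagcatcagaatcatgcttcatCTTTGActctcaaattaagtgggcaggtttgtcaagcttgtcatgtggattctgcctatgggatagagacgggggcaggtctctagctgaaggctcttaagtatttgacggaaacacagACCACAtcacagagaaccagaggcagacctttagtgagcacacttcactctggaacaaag
Cxcr4, chr1:128592250-128592549, minus strand: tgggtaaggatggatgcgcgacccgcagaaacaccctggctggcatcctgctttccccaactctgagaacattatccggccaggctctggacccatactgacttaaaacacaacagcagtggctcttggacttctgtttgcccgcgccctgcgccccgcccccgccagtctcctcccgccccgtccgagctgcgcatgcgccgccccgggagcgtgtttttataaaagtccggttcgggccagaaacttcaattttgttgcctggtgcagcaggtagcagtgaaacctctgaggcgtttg
Cxcr3, chrX:101734098-101734397, minus strand: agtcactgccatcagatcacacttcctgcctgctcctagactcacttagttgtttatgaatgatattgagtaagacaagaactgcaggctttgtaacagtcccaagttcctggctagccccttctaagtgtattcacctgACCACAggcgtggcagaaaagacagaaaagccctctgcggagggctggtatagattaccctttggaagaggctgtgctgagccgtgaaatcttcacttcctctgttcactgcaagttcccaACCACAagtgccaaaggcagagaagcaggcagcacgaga
RefSeq promoters were matched for 6 of the 8 members; Ccr7 and Cxcr5 had no entry. CTTTGA occurred in Cxcr6 and Ccr4, TGTGGT in Cxcr3 and Cxcr6, CCACCC in Ccr9, and AGGTGT in none of the 6. Among 32851 promoters of the same length, these cores occurred in 16.0%, 16.8%, 31.5% and 13.7%, so a match is a common feature and only a description.

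T cells were split by RNA. CD8 cells had RNA of Cd8a or Cd8b1 without any Cd4 UMI (2646 at day 13 and 1436 at day 19), and CD4 cells the reverse (499 and 377). Median depth was 7199 and 9097.5 UMIs in CD8 cells and 6844 and 7868 in CD4 cells. The other cells of the rule had both classes' genes (182 and 114) or neither (448 and 232). Each day's contigs came in 4 tables, called contig sets. The labels do not say whether a set stands for 1 pool or mouse. The sets of a day share clonotypes and 1 capture, so they were not used as replicates and no test was made. Day, capture and staining cannot be told apart, and every interval (95%) covers counting error only. Levels are UMIs of a gene per 1000000 gene UMIs (CPM) in the summed cells, compared within a gene only. A member was counted as different when its ratio was at least 2-fold with an interval excluding 1 and at least 100 UMIs in the sums together. Between the days 58 contig barcodes were shared, 13 of them among the cells of the rule, and 0 of those had the same clonotype.

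Some droplets also carried RNA of dendritic cell markers, which bears first on Ccr7. At least 3 UMIs of Fscn1, a marker of mature dendritic cells, were in 62 of 2646 CD8 cells at day 13 (2.34%) and 14 of 1436 at day 19 (0.975%), and in 34 of 499 (6.81%) and 4 of 377 (1.06%) CD4 cells. Ccr7, which mature dendritic cells also use to reach lymph nodes, stood at 2995 and 2393 CPM in those CD8 droplets and at 3241 and 2308 CPM in those CD4 droplets. Barcodes outside the contig tables with 3 or more Fscn1 UMIs and no CD3 UMI had 3154 and 4118 CPM of Ccr7. The 5 dendritic markers were Flt3, Zbtb46, Fscn1, Xcr1 and Cd209a. Fscn1 also picked the droplets, so part of the fall in their sum without those droplets was fixed by that choice. Across all CD8 cells the 5 markers summed to 151 CPM at day 13 (sets 73.5 to 166) and 54.5 at day 19 (24.1 to 90.7). Without those droplets they summed to 9.41 (7.62 to 11.8) and 6.58 (1.91 to 12.9). In CD4 cells the sum was 409 (200.3 to 605) and 69.3 (23.1 to 124), and 69.9 (56.1 to 88.6) and 48.1 (5.81 to 70.8) without them. None of the 5 markers was at 0. Levels below therefore leave these droplets out unless all cells are named, and counts of members are given for both.

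In CD8 cells, Ccr2 and Ccr9 were lower at day 19 than at day 13, Cxcr3 and Cxcr4 were lower by less than 2-fold, and Cxcr6 and Ccr7 differed least. Ccr2, the receptor for Ccl2, had 30.1, 37.4, 19.1 and 32.5 CPM in the 4 day-13 sets and 15.3, 6.16, 7.0 and 12.3 in the 4 day-19 sets. All day-19 sets lay below all day-13 sets, and the sums gave 29.6 and 8.54 CPM, giving a log2 ratio of -1.79 (-2.07 to -1.52). Over all cells it was -1.82, and with no limit on the macrophage genes it was -1.03. Ccr9, the Ccl25 receptor known for gut and thymus homing, had 25.5, 15.2, 16.3 and 18.4 CPM at day 13 and 5.52, 5.26, 1.59 and 5.23 at day 19. Its sets did not overlap either, and its log2 ratio was -1.93 (-2.31 to -1.57). Plasmacytoid dendritic cells also use Ccr9. Leaving out cells with a UMI of their marker Siglech (16 and 11 cells) gave 16.8 and 2.75 CPM of Ccr9, a log2 ratio of -2.61 (-3.10 to -2.15). Leaving out cells with a UMI of the cycling genes Mki67 or Top2a moved the ratio over all cells from -1.95 to -0.94, inside 2-fold.

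Cxcr3, the receptor for Cxcl9 and Cxcl10, had 159, 200.1, 157 and 156 CPM in the day-13 sets and 82.2, 90.8, 83.7 and 84.9 in the day-19 sets. The groups were wholly apart, with a log2 ratio of -0.99 (-1.08 to -0.90) that stayed inside 2-fold. Cxcr4, the receptor for Cxcl12 that holds cells in marrow and other tissues, had 49.6, 38.8, 49.5 and 38.1 CPM and then 22.7, 18.7, 29.3 and 32.0. Its sets were apart too, with a log2 ratio of -0.86 (-1.03 to -0.69). Cxcr5, which guides cells into B cell follicles, was scarce, with 6.01 and 3.86 CPM and sets that did not overlap. Ccr4, a receptor of Ccl17 and Ccl22, had 1.72 and 0.885 CPM in CD8 cells, 40 and 14 UMIs in all.

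Cxcr6, the receptor for Cxcl16, differed far less between the days. Its sets had 209, 257, 147 and 186 CPM at day 13 and 94.5, 200.2, 197 and 135 at day 19. They overlapped, and the log2 ratio of -0.20 (-0.27 to -0.13) was -0.19 over all cells and 0.055 over all cells without day-13 set 2. Ccr7 had 232, 206, 302 and 257 CPM at day 13 and 188, 167, 245 and 269 at day 19, also overlapping. Its log2 ratio was -0.29 (-0.35 to -0.22) and -0.58 over all cells, the larger value being the one with the Fscn1 droplets.

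Counted over all CD8 cells, 0 of 7 members with enough UMIs were higher and 2 of 7 lower by 2-fold or more, beside 1.61% and 2.41% of 10052 genes. All day-19 sets lay below all day-13 sets for 5 of the 8 members, beside 14.3% of genes, and above for 0 of 8, beside 8.22%. The counts were the same without the Fscn1 droplets. The median log2 ratio of the 7 was -0.87, and that of all genes -0.04. Leaving out 1 set at a time gave 2 to 3 members past 2-fold.

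**Figure D1:**
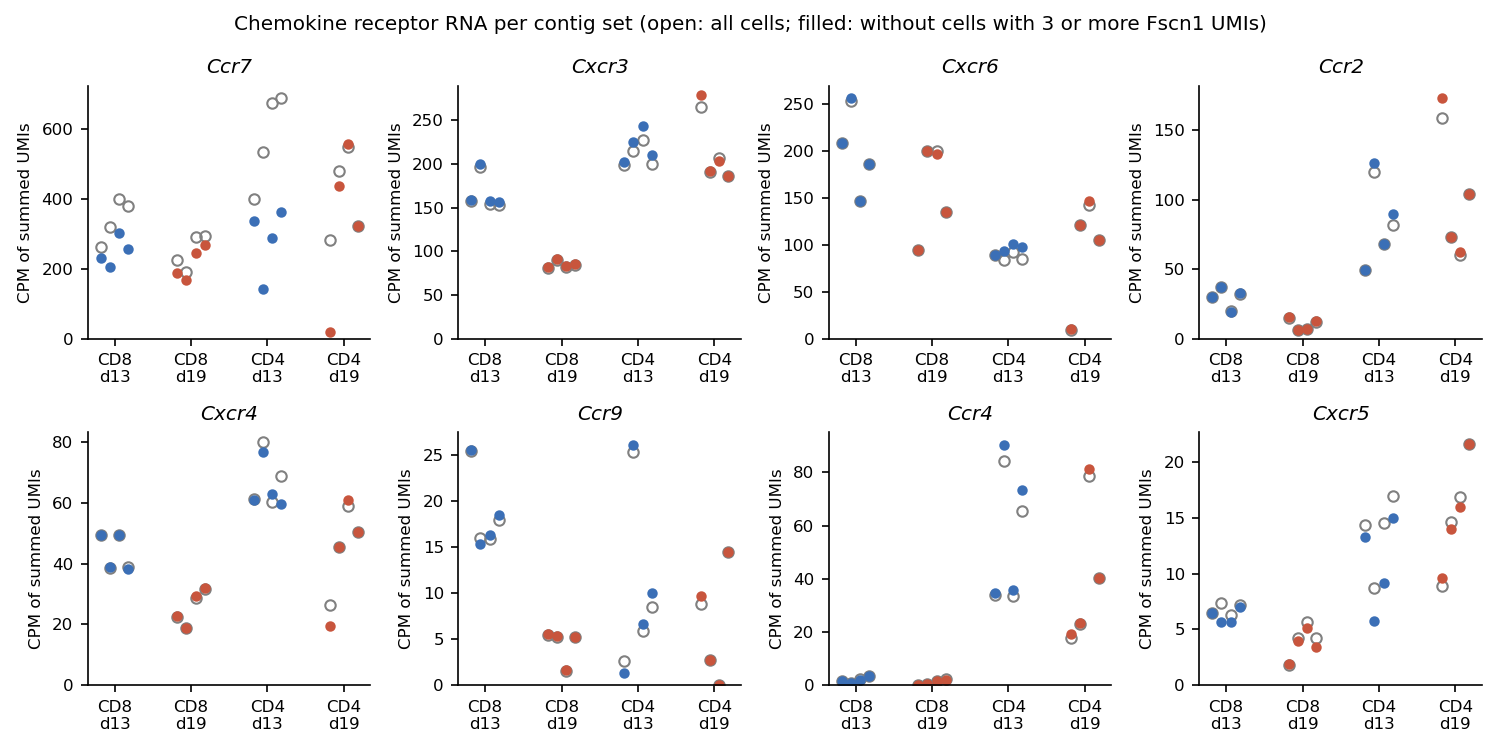
CPM of the 8 receptor genes in each contig set, by class and day (d13, d19), each panel with its own vertical axis from 0. Open circles are all cells and filled circles leave out cells with 3 or more Fscn1 UMIs; the 2 differ most for Ccr7 in day-13 CD4 cells, and the lone low day-19 CD4 point of Ccr7 and Cxcr6 is set 1, with 11 cells.

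The mix of CD8 states differed between the days, so the same genes were followed within states. Pdcd1 (PD-1) marks activated and exhausted cells, Tcf7 (TCF1) cells able to self-renew and Havcr2 (TIM-3) terminally exhausted cells. Cells with UMIs of Pdcd1 and Havcr2 and none of Tcf7, called terminal-like here, made up 8.24% of CD8 cells at day 13 and 24.3% at day 19. Those with Pdcd1 and Tcf7 and without Havcr2, called progenitor-like, made up 16.0% and 9.77%. Cells with Tcf7 and without Pdcd1 made up 47.0% and 37.0%. Here and in the day ratios within states below, states were called without bringing cells to one depth. Median depth was 7567 and 10351 UMIs in progenitor-like cells and 12978 and 12151.5 in terminal-like cells. The part of depth in these values was not tested.

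In each of the 5 states, Cxcr3, Cxcr6, Ccr2 and Cxcr4 were lower at day 19, each with an interval below 0. The log2 ratios ran from -1.55 to -0.51 for Cxcr3, from -1.24 to -0.31 for Cxcr6, from -2.89 to -1.11 for Ccr2 and from -2.07 to -0.34 for Cxcr4. Cxcr6 thus differed more inside the states than over all CD8 cells. It went from 131 to 55.5 CPM in progenitor-like cells, from 407 to 328 in terminal-like cells, from 393 to 288 in other Pdcd1+ cells, from 62.7 to 37.7 in Pdcd1-Tcf7+ cells and from 205 to 113 in Pdcd1-Tcf7- cells. The terminal-like state had the highest Cxcr6 value on both days, with an interval overlapping that of other Pdcd1+ cells at day 13. It was more frequent at day 19. With the day-13 shares of UMIs per state applied to day 19, Cxcr6 would have been at 138 CPM, giving a log2 ratio of -0.55 in place of -0.20.

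Ccr7 differed between the days in different directions by state. It was at 201 CPM in progenitor-like cells at day 13 and 292 at day 19, a log2 ratio of 0.54 (0.38 to 0.70), and at 35.5 and 6.11 CPM in terminal-like cells, a ratio of -2.54 (-3.18 to -1.94). In Pdcd1-Tcf7+ cells, where Ccr7 was highest, it had 464 and 428 CPM. At the day-13 mix its day-19 level would have been 254 CPM, beside 251 at day 13, a log2 ratio of 0.02. Ccr9 was lower at day 19 in 5 of 5 states, with 4 intervals below 0 and ratios from -3.27 to -0.40. By clone size it was lower in single cells and in clones of 3 or more, but higher at day 19 in clones of 2, from 16 and 21 UMIs, a ratio of 1.25 (0.25 to 2.29). Those clones of 2 held 103 and 44 cells. The highest day-19 CD8 cell alone held 20 of 72 Ccr9 UMIs, and whether it was among them was not tested. Cxcr5 in Pdcd1-Tcf7+ cells, with 99 and 32 UMIs, had a ratio of -0.76 (-1.38 to -0.17). In the other states the intervals of Cxcr5, and in all states those of Ccr4, included 0 wherever a ratio could be formed.

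**Figure D2:**
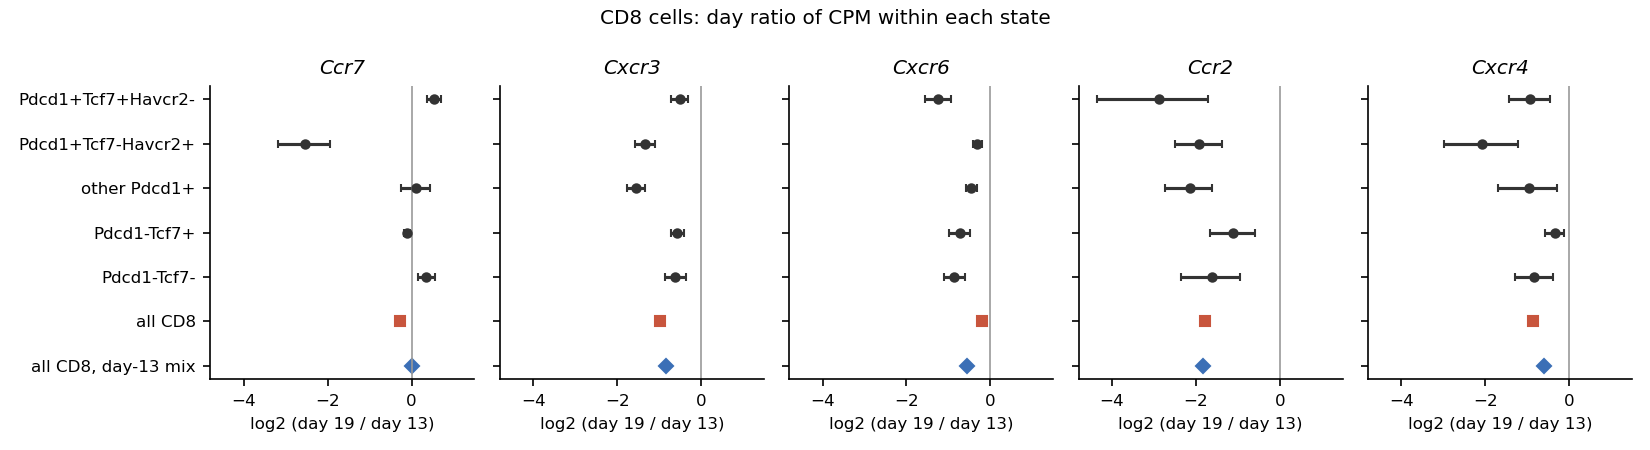
Log2 ratio of CPM, day 19 over day 13, of 5 receptors within each of 5 CD8 states (black points with 95% counting intervals), over all CD8 cells (red squares) and at the day-13 mix of states (blue diamonds), without cells with 3 or more Fscn1 UMIs. All points of Cxcr3, Cxcr6, Ccr2 and Cxcr4 lie left of 0, while Ccr7 lies on both sides.

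Over all CD4 states together, no member with at least 100 UMIs passed 2-fold between the days, and the direction for Ccr7 turned with the Fscn1 droplets. Ccr7 had 337, 142, 288 and 364 CPM in the day-13 sets and 19.3, 438, 558 and 323 in the day-19 sets. The groups overlapped, and day-19 set 1 held 11 cells. The sums were 268 and 427 CPM, giving a log2 ratio of 0.67 (0.56 to 0.79), whereas over all cells they were 588 and 459 CPM, a ratio of -0.36 (-0.45 to -0.27). Ccr7 was higher at day 19 in each of 3 CD4 states, with ratios of 0.98 in Foxp3+ cells, 0.44 in Foxp3-Pdcd1+ cells and 0.62 in Foxp3-Pdcd1- cells. A few cells carried much of it: the top 10 cells held 39.2% of the day-13 and 34.4% of the day-19 Ccr7 UMIs.

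Cxcr3 was at 224 and 196 CPM in CD4 cells, with 203, 226, 243 and 211 in the day-13 sets and 280, 192, 203 and 186 in the day-19 sets. Over all cells its log2 ratio was -0.13. By state it was -0.41 (-0.64 to -0.18) in Foxp3-Pdcd1+ cells, -0.28 in Foxp3-Pdcd1- cells and 0.07 in Foxp3+ cells. Cxcr6 had 88.8, 93.8, 101 and 97.2 CPM at day 13 and 9.64, 121, 147 and 105 at day 19, so 3 of 4 late sets were above all early ones, with a log2 ratio of 0.33 (0.12 to 0.53). Ccr4 had 34.5, 90.5, 35.6 and 73.5 CPM and then 19.3, 23.4, 81.3 and 40.4. Its log2 ratio was -0.68, and over all cells -0.62, which became 0.015 without day-19 set 2. By state it was -1.09 (-1.56 to -0.62) in Foxp3+ cells, past 2-fold at 87.5 and 41.2 CPM, -0.50 in Foxp3-Pdcd1+ cells and 0.02 in Foxp3-Pdcd1- cells. Ccr2 had a ratio of -0.12 (-0.35 to 0.11), Cxcr4 of -0.44 (-0.73 to -0.17) and Cxcr5, with 98 UMIs, of 0.64 (0.04 to 1.26). Ccr9 had 49 and 17 UMIs, too few to be counted, at 12.3 and 4.59 CPM. Its ratio was -1.42 (-2.31 to -0.60), and it was lower at day 19 in 3 of 3 CD4 states, with 2 intervals below 0.

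Over all CD4 cells, 0 of 7 members were higher and 0 of 7 lower, beside 1.21% and 2.54% of 7289 genes. All day-19 sets were below all day-13 sets for 1 of 8 members, Cxcr4, beside 5.79% of genes, and above for 0 of 8, beside 5.64%. Without the Fscn1 droplets the sets of Cxcr4 overlapped. Leaving out day-19 set 3 brought 1 member, Ccr4, past 2-fold. Among the other receptors, Ccr8, known from tumor regulatory T cells, was the one past 2-fold, at 94.1 and 230 CPM over all CD4 cells with day-19 sets above day-13 sets.

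Among the 8 members, CD4 cells differed from CD8 cells most in Ccr4. It stood at 49.0 CPM in CD4 and 1.38 in CD8 cells, a log2 ratio of 5.15 (4.73 to 5.59). Over all cells it was 5.01, and 4.21 with no limit on the macrophage genes. Over the 8 sets of both days Ccr4 in CD4 cells ran from 19.3 to 90.5 CPM (median 38.0) and in CD8 cells from 0 to 3.36 (median 1.56), with no overlap. Ccr2 had 83.4 and 21.1 CPM, giving a log2 ratio of 1.99 (1.84 to 2.14), higher in CD4 cells in 8 of 8 sets and also without overlap. The Ccr2 ratio was 1.55 at day 13 and 3.23 at day 19. Cxcr5 had 12.7 and 5.14 CPM, a ratio of 1.31 (0.94 to 1.66), higher in 8 of 8 sets.

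Cxcr6 differed the other way, at 107 CPM in CD4 and 191 in CD8 cells, a log2 ratio of -0.83 (-0.93 to -0.72), lower in CD4 cells in 8 of 8 sets. Cxcr3 was higher in CD4 cells in 8 of 8 sets, at 210.25 and 138 CPM, without passing 2-fold over both days. These values differed by day: the log2 ratio of Cxcr3 was 0.37 at day 13 and 1.17 at day 19, that of Cxcr4 0.61 and 1.02, and that of Cxcr5 0.74 and 2.02. Cxcr6 was past 2-fold at day 13, at -1.07, and at -0.55 at day 19. Ccr7 depended on the Fscn1 droplets: its ratio was 0.79 with 8 of 8 sets higher over all cells and 0.57 with 5 of 8 without them, from 0.09 at day 13 and 1.05 at day 19. Counted over all cells, 3 of 8 members were higher and 0 of 8 lower, beside 7.28% and 2.97% of 10449 genes, the same without the Fscn1 droplets. Of the other receptors, 4 of 6 with enough UMIs were higher in CD4 cells: Ccr6, typical of Th17 and regulatory cells, at 38.0 against 1.14 CPM, Ccr8 at 156 against 13.1, Ccr1 at 11.5 against 1.29, and Ccrl2 at 92.7 against 45.6 over all cells.

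Within CD4 cells, those with a UMI of Foxp3, the regulatory T cell factor (275 of all 876), had more Ccr2 and less Cxcr6 and Ccr7. Ccr2 stood at 139 CPM in Foxp3+ and 51.5 in Foxp3- cells, a log2 ratio of 1.43 (1.20 to 1.67). Over the 8 sets Ccr2 ran from 96.8 to 224 CPM (median 134) and from 25.7 to 120 (median 50.6); it was higher in Foxp3+ cells in 8 of 8 sets, though the ranges overlapped. Its ratio was 1.12 at day 13 and 1.87 at day 19. Cxcr6 had 60.3 and 134 CPM, a ratio of -1.16 (-1.41 to -0.91), lower in 7 of 8 sets. Over all cells the Cxcr6 ratio was -1.20, and it came inside 2-fold, at -0.88, without cells with a UMI of the cycling genes Mki67 or Top2a. Ccr7 had 201 and 426 CPM, a ratio of -1.08 (-1.22 to -0.95), lower in 8 of 8 sets; over all cells it was -0.74, and -0.18 without the cycling cells.

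Ccr4, often used by regulatory T cells, was at 63.5 and 40.7 CPM, a ratio of 0.64 (0.34 to 0.94) with 6 of 8 sets higher. Cxcr5 had 24 and 74 UMIs, a ratio of -0.82 (-1.55 to -0.14), lower in 6 of 8 sets. Cxcr3 was at -0.08 and Cxcr4 at 0.11 on the log2 scale. Over all cells 1 of 7 members was higher and 1 of 7 lower, beside 2.95% and 1.85% of 7289 genes; without the Fscn1 droplets Ccr7 made it 2 of 6 lower. Foxp3+ cells were deeper, with a median of 8914 UMIs against 7081, and cells with few UMIs can miss Foxp3. With Foxp3 called after thinning the cells to one depth, the ratios over all cells were 1.46 for Ccr2, -0.93 for Cxcr6, inside 2-fold, and -0.77 for Ccr7.

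Terminal-like and progenitor-like CD8 cells (570 and 571) differed in 4 receptors: Cxcr6 was higher and Ccr7, Cxcr3 and Cxcr4 were lower in terminal-like cells. Cxcr6 had 361 and 107 CPM, giving a log2 ratio of 1.75 (1.63 to 1.88). Its sets ran from 196 to 511 CPM (median 353) in terminal-like and from 26.2 to 162 (median 86.4) in progenitor-like cells, with no overlap. Cxcr4 had 7.81 and 41.4 CPM, a ratio of -2.41 (-2.83 to -2.0), with sets from 0 to 18.3 against 19.9 to 57.3. Ccr7 had 18.2 and 230 CPM, a ratio of -3.66 (-3.91 to -3.41), with sets apart. Over all cells the Ccr7 ratio was -2.09, and -3.27 without day-13 set 2 or -1.49 without day-19 set 2. Cxcr3 had 75.5 and 186 CPM, a ratio of -1.30 (-1.45 to -1.15), lower in 8 of 8 sets. Terminal-like cells were mostly from day 19, so the ratios were also taken by day. That of Cxcr3 was -0.81 at day 13, inside 2-fold, and -1.64 at day 19. Ccr7 had ratios of -2.50 and -5.58, Cxcr4 of -1.79 and -2.93 and Cxcr6 of 1.64 and 2.56.

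Cxcr5 had 0 UMIs in terminal-like and 41 in progenitor-like cells. A floor of 3 UMIs over the group puts it at least 4.26 lower on the log2 scale. Over all cells, Fscn1 droplets included, the Cxcr5 ratio was -3.14. Ccr2 had 17.2 and 17.5 CPM over both days together. Within a day it had 30.4 CPM in terminal-like and 24.1 in progenitor-like cells at day 13 (log2 ratio 0.33, -0.08 to 0.75), and 8.0 and 3.27 CPM at day 19 (1.29, 0.04 to 2.83, from 38 and 6 UMIs), with 2 of 4 sets higher on each day. Over all cells 1 of 6 members was higher and 3 of 6 lower, beside 3.35% and 4.41% of 8391 genes, and the counts were the same without the Fscn1 droplets. Terminal-like cells were deeper, with medians of 12299.5 against 8311 UMIs, and more of them had a UMI of the cycling genes Mki67 or Top2a (50.9% against 32.2%). Without cells carrying either gene the ratios over all cells were 1.90 for Cxcr6, -2.48 for Cxcr4, -1.58 for Ccr7 and -1.21 for Cxcr3. With the states called after thinning to one depth they were 1.70, -2.67, -2.97 and -1.01, in the same order. Over all cells of both days the Ccr9 ratio was 0.05. By day, without the Fscn1 droplets, Ccr9 had 24.4 against 12.2 CPM at day 13, higher in 2 of 4 sets. At day 19 it had 2.53 against 9.26 CPM, from 12 and 17 UMIs. With no limit on the macrophage genes the Cxcr4 ratio was -1.20. Both classes are defined by single UMIs and are not sorted types.

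Over all 5 CD8 states, the order of Cxcr6 at day 13 was terminal-like (407 CPM), other Pdcd1+ (393), Pdcd1-Tcf7- (205), progenitor-like (131) and Pdcd1-Tcf7+ (62.7). The first 2 did not differ beyond their intervals (386 to 430 and 374 to 412). At day 19 the order was the same, at 328, 288, 113, 55.5 and 37.7 CPM. Cxcr4 was highest in Pdcd1-Tcf7- cells (63.6 CPM) and Pdcd1-Tcf7+ cells (59.1) at day 13, with overlapping intervals, followed by 48.8 in progenitor-like, 17.5 in other Pdcd1+ and 14.2 in terminal-like cells. At day 19 Cxcr4 had 46.6 CPM in Pdcd1-Tcf7+, 35.9 in Pdcd1-Tcf7-, 25.6 in progenitor-like, 8.97 in other Pdcd1+ and 3.37 in terminal-like cells. On both days the 2 states highest in Cxcr6 were the 2 lowest in Cxcr4, while Pdcd1-Tcf7- cells, next in Cxcr6, were among the 2 highest in Cxcr4.

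Klra7 encodes Ly49G2, an inhibitory receptor of NK cells and of some CD8 T cells. Klra7+ CD8 cells (619 of all 4082) had little Cxcr6, Ccr2 and Ccr9, and more Cxcr4. Cxcr6 stood at 45.0 CPM in Klra7+ and 217 in Klra7- cells, a log2 ratio of -2.27 (-2.45 to -2.09), with sets from 27.4 to 58.5 against 107 to 282 and no overlap. Ccr2 had 5.91 and 23.8 CPM, a ratio of -2.01 (-2.54 to -1.52), lower in 8 of 8 sets. Ccr9 had 4 UMIs in Klra7+ and 472 in Klra7- cells, a ratio of -4.40 (-6.28 to -3.03). Over all cells the Ccr9 ratio was -2.38, or -4.06 without day-13 set 2. Among CD8 cells single in their clonotype, as defined below, 425 were Klra7+ and 1571 Klra7-. These had 39.6 and 127 CPM of Cxcr6, 62.3 and 42.6 of Cxcr4, 4.54 and 22.8 of Ccr2 and 0.505 and 17.2 of Ccr9. Pdcd1-Tcf7+ CD8 cells as a whole were also low in Cxcr6, at 62.7 CPM at day 13 and 37.7 at day 19. They were high in Cxcr4, at 59.1 and 46.6 CPM.

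Cxcr4 was higher in Klra7+ cells in 8 of 8 sets, at 61.5 against 30.9 CPM, giving a log2 ratio of 0.99 (0.82 to 1.17) just inside 2-fold. Cxcr4 in Klra7+ and Klra7- cells was at 74.5 and 38.4 CPM at day 13, a ratio of 0.96, and at 45.6 and 19.6 at day 19, a ratio of 1.22 that was past 2-fold. Ccr7 had 145 and 248 CPM, a ratio of -0.77 (-0.88 to -0.67), with -0.61 at day 13 and -1.02, past 2-fold, at day 19, and Cxcr3 107 and 144. By day Cxcr3 had 120 and 181 CPM at day 13, but 90.8 and 86.6 at day 19, a ratio of 0.07 (-0.14 to 0.27). Over all cells 0 of 7 members were higher and 3 of 7 lower, beside 1.68% and 4.32% of 10052 genes, the same without the Fscn1 droplets. Of the other receptors, 3 of 4 with enough UMIs were lower and Ccrl2 had a log2 ratio of 0.42 over all cells. Ccr8 stood at 4.33 against 14.7 CPM, and Cx3cr1, typical of cytotoxic effector cells, at 1.83 against 11.4 over all cells.

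**Figure D3:**
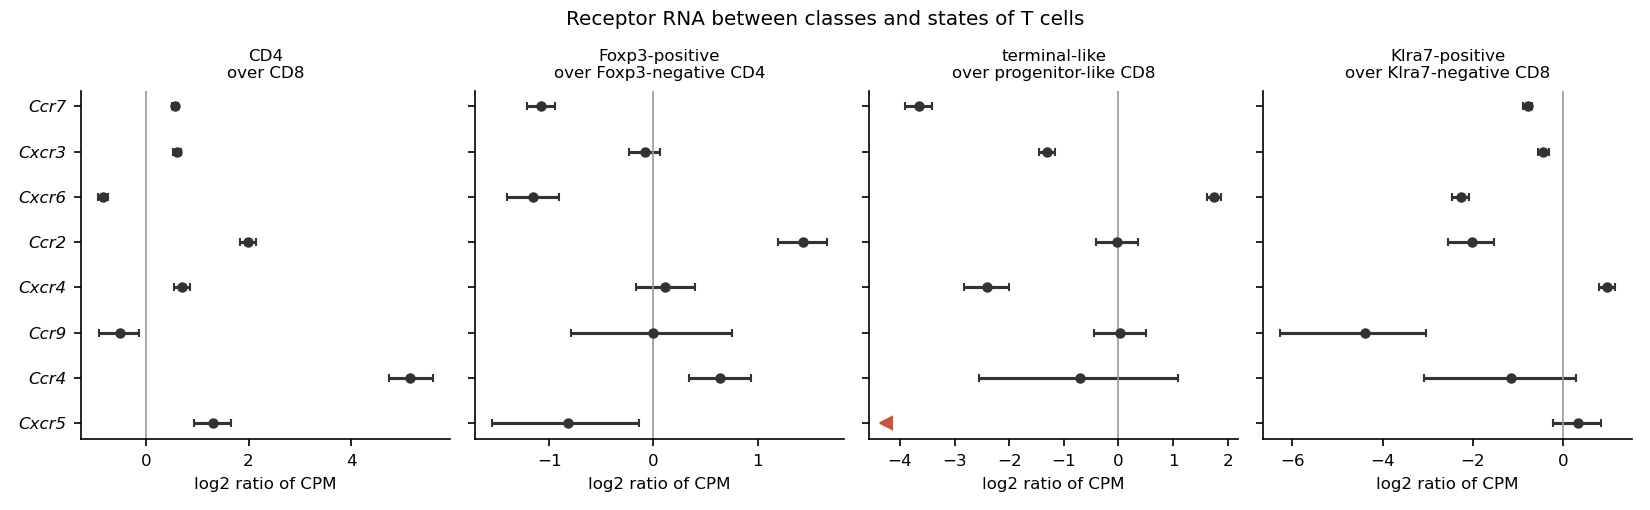
Log2 ratio of CPM for each receptor in 4 comparisons of T cell groups, both days together, without cells with 3 or more Fscn1 UMIs; bars are 95% counting intervals, horizontal axes differ, and the red arrow is a bound for Cxcr5, at 0 UMIs in terminal-like cells. Cxcr6 is right of 0 in terminal-like cells and left of 0 in Foxp3+ and Klra7+ cells.

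Receptor levels were also compared by clone size. A clonotype was the same pair of TRA and TRB CDR3 nucleotide sequences within a contig set, and expanded means at least 3 cells. Sizes were counted only among cells of the rule with exactly 1 TRA and 1 TRB chain. Those were 1933 of 2646 CD8 cells at day 13 and 944 of 1436 at day 19. A cell called single can therefore belong to a larger clone whose other cells were not counted. In CD8 cells (696 expanded and 2028 single), Cxcr6 was higher in expanded cells and Ccr7, Cxcr4, Ccr9 and Cxcr5 were lower. Cxcr6 had 400.3 and 108 CPM, giving a log2 ratio of 1.89 (1.81 to 1.98), higher in 8 of 8 sets. Its sets ran from 134 to 482 CPM (median 377) in expanded and from 74.2 to 167 (median 94.5) in single cells. Ccr7 had 24.9 and 327 CPM, a ratio of -3.71 (-3.93 to -3.51), with sets from 0 to 44.8 against 268 to 366 and no overlap. Over all cells the Ccr7 ratio was -1.81.

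Cxcr4 had 11.2 CPM in expanded and 47.0 in single cells, a log2 ratio of -2.06 (-2.40 to -1.74), with sets from 0 to 21.4 against 26.8 to 60.5. Cxcr5 had 13 and 126 UMIs, a ratio of -2.07 (-3.02 to -1.25). Ccr9 had a ratio of -1.15 (-1.63 to -0.69), and over all cells -1.23, or -3.56 without day-13 set 2. Over all cells without Mki67 or Top2a UMIs the Ccr9 ratio was -0.22, inside 2-fold. Cxcr3 turned between the days: expanded and single cells had 189.5 and 160.1 CPM at day 13 (log2 ratio 0.24, 0.13 to 0.36), and 64.5 and 108 at day 19 (-0.74, -0.98 to -0.51). Ccr2 had 41.9 and 24.8 CPM at day 13 and 5.77 and 8.46 at day 19, with 4 of 8 sets higher. Over all cells 1 of 7 members was higher and 4 of 7 lower, beside 3.89% and 3.47% of 9463 genes, the same without the Fscn1 droplets. Ccr8, a receptor outside the 8, was also higher in expanded cells, at 18.9 against 9.28 CPM.

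The levels followed clone size in steps. Cxcr6 at day 13 was at 125 CPM in single cells, 304 in clones of 2, 427 in clones of 3 to 9 and 442 in clones of 10 or more. At day 19 it was at 78.6, 170, 260 and 405 CPM. Only the last 2 day-13 steps had overlapping intervals. Ccr7 at day 13 was at 323, 61.8, 55.2 and 8.77 CPM, and at day 19 at 334, 42.1, 20.6 and 5.19. The Ccr7 intervals of clones of 2 and of 3 to 9 overlapped on both days. Cxcr4 was at 53.0, 21.2, 15.9 and 16.2 CPM at day 13, with a near level tail, and at 36.7, 12.3, 6.60 and 1.15 CPM at day 19.

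Clone size and state overlap, so expanded and single cells were also compared inside each state, both days together. The mix of days in these groups was not evened out, and its part in the ratios was not tested. Cxcr6 was higher in expanded cells in 5 of 5 states, with log2 ratios from 0.30 in terminal-like cells (402 against 327 CPM) to 2.37 in Pdcd1-Tcf7+ cells (227 against 43.9). Ccr7 was lower in expanded cells in 5 of 5 states, from -0.91 in Pdcd1-Tcf7+ cells to -3.82 in other Pdcd1+ cells. Cxcr4 had ratios below 0 in 5 of 5 states, with 3 intervals below 0. Ccr9 turned with the state, at -5.35 (-7.28 to -3.90) in terminal-like cells, from 4 and 48 UMIs. It was at 2.62 (1.56 to 3.70) in Pdcd1-Tcf7- cells, from 19 and 15 UMIs. In expanded Pdcd1-Tcf7+ cells it was also higher (2.07, 0.37 to 3.41), from 5 UMIs in 38 cells against 41 in 1166 single cells. Cxcr5 was higher in expanded progenitor-like cells, with 11 and 19 UMIs and a ratio of 1.5 (0.29 to 2.65). Cxcr3 ran from -0.69 in terminal-like to 1.5 in Pdcd1-Tcf7+ cells, both intervals excluding 0. Ccr2 turned too: it was higher in expanded progenitor-like (1.86), Pdcd1-Tcf7+ (1.81) and Pdcd1-Tcf7- cells (1.12) and lower in expanded terminal-like (-0.72) and other Pdcd1+ cells (-0.62), all 5 intervals excluding 0. Klra7+ cells were nearly absent from expanded clones, with 1 cell against 425 single ones. Among Klra7- cells alone the Cxcr6 ratio of expanded over single cells was 1.66 (1.57 to 1.74). Of expanded CD8 cells 41.1% had a UMI of Mki67 or Top2a, against 21.2% of single cells, and their median depths were 8886 and 7164 UMIs; the part of depth in the ratios was not tested. Over all cells without either gene's UMIs the ratios were 2.15 for Cxcr6, -1.23 for Ccr7, -1.82 for Cxcr4 and -1.08 for Cxcr5, while Ccr2 went from 0.56 to 1.19, past 2-fold.

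**Figure D4:**
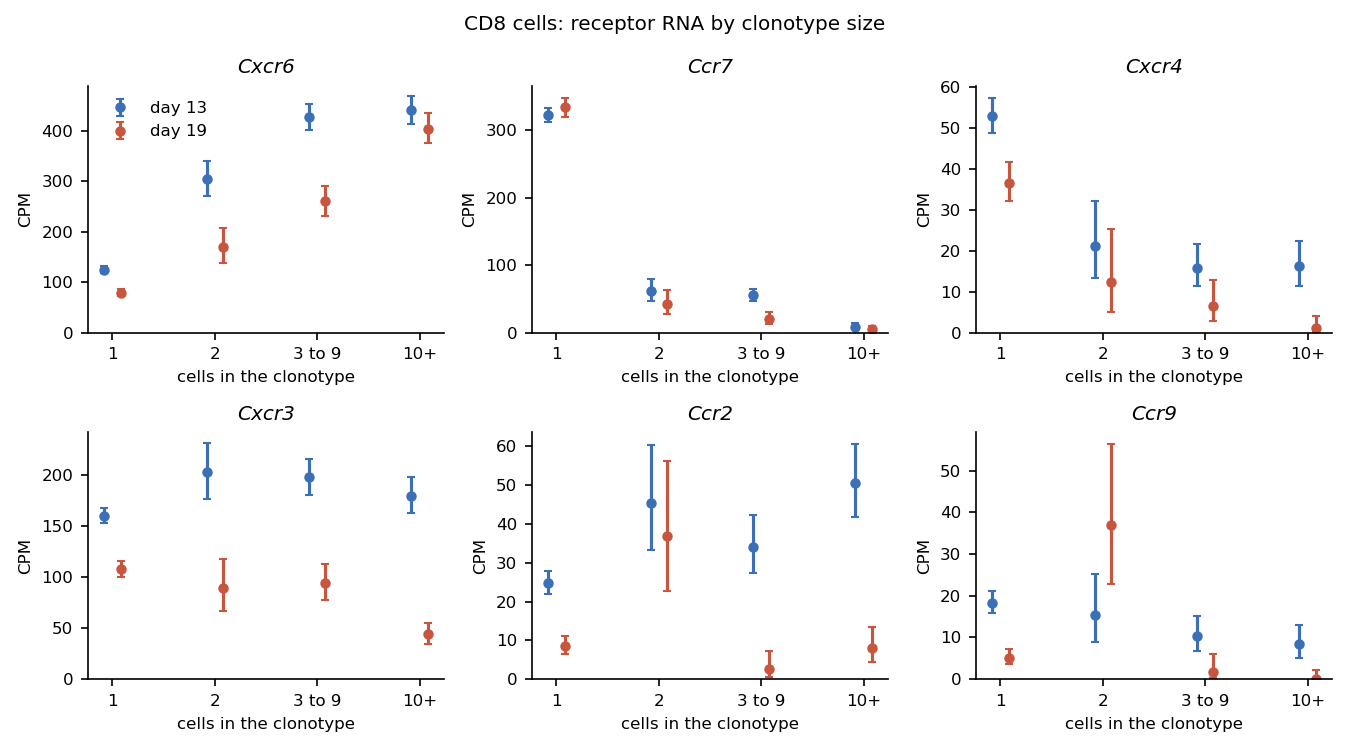
CPM of 6 receptors in CD8 cells by number of cells in the clonotype, at day 13 (blue) and day 19 (red), without cells with 3 or more Fscn1 UMIs; bars are 95% counting intervals and vertical axes start at 0. Cxcr6 goes from 125 to 442 CPM at day 13 and from 78.6 to 405 at day 19, while Ccr7 and Cxcr4 are highest in single cells.

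In CD4 cells, 78 cells were expanded and 453 single, with both present in 6 of 8 sets. Cxcr6 had 208 and 78.1 CPM, giving a log2 ratio of 1.42 (1.14 to 1.69); 4 of 6 sets had more in expanded cells. That rested on day-19 set 2: the ratio of 1.47 over all cells became 0.68 without it. Over all cells 1 of 6 members was higher and 0 of 6 lower, beside 1.53% and 2.41% of 5811 genes. Without day-19 set 2 no member passed 2-fold, and without day-19 set 3, 2 members did. Ccr4 had a ratio of -0.71 over all cells that became 0.96 without day-19 set 2, so it held no direction.

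Shares of cells with a UMI were compared after thinning each cell to 5000 UMIs. In CD8 cells Cxcr3 was seen in 49.5% (47.6 to 51.4) of day-13 cells and 32.1% (29.7 to 34.6) of day-19 cells, and unthinned in 60.7% and 46.0%. In macrophage-like barcodes outside the contig tables (460 and 177, median depths 8949.5 and 9392), which should lack Cxcr3, the thinned share was 3.48% and 1.69%. Cxcr6 was in 38.9% and 38.7% of CD8 cells, nearly the same share on both days, unthinned in 46.1% and 49.1%. It was in 0 of 460 macrophage-like barcodes at day 13, which allows a share of up to 0.652%, and in 1.13% at day 19. Ccr7 was in 38.2% and 31.6% of CD8 cells, unthinned in 43.3% and 37.1%, and in 2.17% and 3.39% of macrophage-like barcodes.

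In CD4 cells the thinned share of Ccr4 was 21.9% (18.3 to 26.0) early and 13.9% (10.6 to 17.9) late, unthinned 26.9% and 20.1%. In CD8 cells the share of Ccr4 was 0.735% and 0.422%, and in macrophage-like barcodes 0 of 460 and 0 of 177, allowing up to 0.652% and 1.69%. Ccr2 was in 22.2% and 21.4% of CD4 cells, and in 9.40% and 3.45% of CD8 cells. Macrophage-like barcodes had Ccr2 in 39.6% and 47.5% and Cxcr4 in 49.6% and 40.7%, and were not read as background for these 2 genes, which macrophages are known to express.

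Ccr9 was seen in 3.56% (2.88 to 4.35) of the early and 1.27% (0.752 to 1.99) of the late CD8 cells, against 1.74% and 2.26% of macrophage-like barcodes. The day-19 share in CD8 cells was thus no higher than in those barcodes (4 of 177, 0.619 to 5.68), and was not read as a share of cells expressing Ccr9. The Ccr9 UMIs at day 19 were not spread evenly, with 76.4% of 72 UMIs in 10 cells and 20 in the highest cell. In CD8 cells at day 13 the top 10 cells held 28.2% of 404 Ccr9 UMIs.

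Ccr7 and Cxcr6 were seldom seen in the same CD8 cell. At day 13, 17.5% of the 986 cells with a Ccr7 UMI had a Cxcr6 UMI, against 52.0% of cells without; both were seen in 173 cells where the product of the shares gives 383. At day 19 the shares were 9.56% and 52.3%, with 43 cells where the product gives 174. Cxcr3 and Cxcr6 were together in 603 day-13 cells (product 497), but at day 19 in 184, near the product of 177. Ccr7 and Cxcr5 were together in 53 day-13 cells (product 28.6) and 20 day-19 cells (product 9.18). Ccr2 and Ccr9, whose genes lie within the 342 kb above, shared 1 cell at day 13 (product 8.65) and 3 at day 19 (product 0.62). At day 19, 16 of 135 Ccr2 UMIs and 29 of 72 Ccr9 UMIs were in the 11 CD8 cells with a Siglech UMI, whose part in that overlap was not tested. In CD8 cells, 10.6% at day 13 and 17.3% at day 19 had no UMI of any member, and 36.6% and 26.2% had UMIs of exactly 2 members.

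The antibody tags for 4 of these receptors did not separate cells with the receptor's RNA from cells without it. The CD183 tag (Cxcr3) in CD8 cells at day 13 was at 223 per 10000 tag UMIs with a Cxcr3 UMI and 227 without, and at 205 in macrophage-like barcodes. For the tags these were all 536 such day-13 barcodes, those with 3 or more Fscn1 UMIs included. The CD197 tag (Ccr7) had 124 and 125, and 116 in macrophage-like barcodes. The CD192 tag (Ccr2) had 270.4 and 270.5, and the CD185 tag (Cxcr5) 141 and 141. Over these 4 tags in 2 classes, 0 of 8 combinations were higher with the RNA in all sets. The isotype control tags IgG1, IgG2a and IgG2b stood at 26.0, 21.3 and 13.5 per 10000, below the receptor tags. At day 19 in CD8 cells the CD185 tag was at 131 with a Cxcr5 UMI and 183 without, and the CD192 tag at 226 with a Ccr2 UMI and 257 without. The median cells were close, with 29 and 30.5 UMIs of the CD185 tag and 59 and 58 of the CD192 tag.

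The genes whose CPM followed each member most closely were found over 16 sums, 8 T cell states on each of 2 days, among 7169 genes. These sums were of all cells and included the Fscn1 droplets, which are rich in Ccr7. Cxcr6 was closest to Gng2 (Pearson r of log2 CPM 0.96), Cxcr4 to Nfkbiz (0.96), Ccr4 to Nr4a1 (0.97), Cxcr3 to Pcgf5 (0.94) and Ccr2 to Rap1b (0.94). Ccr7 was closest to Ralgps2 (0.93), S1pr1 (0.92), the receptor for exit from lymph nodes, and Cmah (0.92). Cxcr5 was closest to Tgif1 (0.92) and Ccr7 (0.92), and Ccr9 to AI413582 (0.89). The 16 sums share cells' depth and capture within a day, so these values only describe the sums.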

How the data were processed

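The deposited matrices hold whole-number UMI counts per gene and antibody tag for all 736611 and 735849 barcodes of the 2 captures, not filtered by the authors, per the file headers. The deposited TCR tables give UMI counts per contig. Cell Ranger 4.0.0, STAR 2.7.5c, bcl2fastq 2.20, Seurat, R 4.1.2 and mm10 are named in the submitters' processing notes, without their roles. Counts were summed per cell group and divided by all gene UMIs of the sum (CPM) with Python 3.11.15, numpy 2.4.6, scipy 1.17.1 and pandas 2.3.3, and drawn with matplotlib 3.10.9. Ratios have exact 95% intervals for 2 Poisson counts and shares exact (Clopper-Pearson) intervals; a sum of 0 was set to 3 counts. The script was tested on simulated data. With 1 capture per day no test was made. Matrix totals were 144565182 and 81224453 gene UMIs.

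The members and lists were chosen with earlier results of these data known. Text names the 8 members, the other receptors with at least 100 UMIs, the listed ligands and the 3 genes most like each member in log2(CPM + 1). Symbols with more than 1 identifier were summed, and Trgc1 was not used here; 1 of the other receptors is not reported here. No doublet caller was run: droplets with 3 or more Fscn1 UMIs were set aside, a choice made after seeing the data. Alternatives changed the UMI minimum, the macrophage and mitochondrial limits, the class and state rules, the weighting, clone size and each set in turn.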

Additional observations from a re-analysis of the deposited data

Results flagged for a closer look

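Within the 4 contig sets of a class and day, 1 set stood apart from the other 3 for 2 receptors. Cxcr3 in CD8 cells at day 13 was at 200.1 CPM in set 2, while the other 3 sets lay close together. Ccr9 in CD8 cells at day 19 was at 1.59 CPM in set 3, below the other 3 sets. Of 30 groups of 4 sets examined, 2 had such a set, and chance gives about 1 in 20. The sets of a day share clonotypes and were not used as replicates, and the labels do not say what each set stands for.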

How the results depend on the processing

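Here each comparison started from all cells, Fscn1 droplets included, and leaving those droplets out was among the alternatives. Of 1278 member ratios recomputed under the alternatives, 1040 stayed within the 95% counting interval of the value over all cells. Another 226 moved out of it, and 12 whose interval over all cells excluded 0 changed sign. Leaving out each contig set in turn moved the CD4 day count of members past 2-fold between 0 and 1, and that of expanded against single CD4 cells between 0 and 2. Over the same omissions the log2 day ratio of Cxcr6 in CD8 cells ran from -0.393 (without day-19 set 2) to 0.055 (without day-13 set 2). That of Ccr4 in CD4 cells ran from -1.06 (without day-19 set 3) to 0.015 (without day-19 set 2), and Ccr4 in expanded against single CD4 cells from -2.93 to 0.96 without the same 2 sets, the latter ratio being 0.11 with the macrophage genes at 0 and 1.94 with sets weighted equally.

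The day ratio of Ccr7 in CD4 cells was 0.018 with a minimum of 2000 UMIs, 0.28 with no macrophage limit, 0.67 without the Fscn1 droplets and 0.78 without a UMI of dendritic or B cell genes, the last 2 choices made after seeing the data. The log2 ratio of Ccr7 in expanded over single CD4 cells was -0.29 over all cells. It changed sign to 0.21 with no macrophage limit, 0.092 without the Fscn1 droplets and 0.23 without cycling cells. Members past 2-fold became 5 for CD4 over CD8 cells with a minimum of 2000 UMIs, and 5 for Klra7 with states called after thinning. For Foxp3 the count rose to 3 with the macrophage genes at 0. It was 1, Ccr2, with Cxcr6 inside 2-fold, with cells weighted equally, with classes from 2 or more UMIs, with thinned states and without cycling cells. Without cycling cells it was 1 for the CD8 day comparison (Ccr9 being lost), 4 for expanded CD4 cells, and 3 of 16 member shares differed by day. Expanded CD4 cells gave 3 members with the macrophage genes at 0, and 2 with no macrophage limit or without dendritic or B cell genes. Beyond fewer cells or sets in some of these, the cause was not tested. Counts were low for Ccr4 in CD8 cells (40 and 14 UMIs) and for Ccr9 at day 19 (72 UMIs in CD8 and 17 in CD4 cells). No paired analysis was possible because each day has 1 capture and no test was made. The set numbers pair nothing between the days, and within a day groups of the same set were compared only as counts of sets.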

Other observations

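Ligands of the 8 receptors were read in the same matrices. Macrophage-like barcodes outside the contig tables carried Cxcl16, the ligand of Cxcr6, at 632 CPM at day 13 and 567 at day 19. They carried the Cxcr3 ligands Cxcl9 at 375 and 514 CPM and Cxcl10 at 1828 and 1033, and the Ccr2 ligand Ccl2 at 1338 and 906. Ccl22, a ligand of Ccr4, was at 370 and 265 CPM in Fscn1-rich barcodes without CD3 and at 25.1 and 10.0 in macrophage-like barcodes. CD8 T cells without the Fscn1 droplets had 280.2 and 93.7 CPM of Cxcl10. Ccl21a, a ligand of Ccr7, was at 0 in all these populations, and Cxcl12, the ligand of Cxcr4, at 0 in macrophage-like and Fscn1-rich barcodes.

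T cells with the TRAV11 and TRAJ18 segments of invariant NKT cells numbered 23 and 15. They had 284 and 294 CPM of Cxcr3, 193 and 228 of Cxcr6 and 54.4 and 24.5 of Ccr7, from 3 to 47 UMIs per value. Cells with neither CD8 nor CD4 genes (424 and 227 without the Fscn1 droplets) had 86.8 and 55.9 CPM of Cxcr4 and 54.7 and 46.0 of Cxcr6. The CD185 tag for Cxcr5 averaged 525 per 10000 tag UMIs in Pdcd1-Tcf7- CD8 cells at day 19, although the median cell had 30 tag UMIs there, and 148 at day 13.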
